A study of Mus musculus with 8 samples.

Results

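The genes of cell division were examined in sorted pancreatic beta cells that had lost Adar, the gene of an enzyme that turns adenosine into inosine in double-stranded RNA. The 36 genes are listed members of the cell cycle and DNA replication machinery, matched by gene name to rows of the table of normalized counts, and all 36 were found among its 44343 genes. They fall into 11 genes of the passage from G1 into S phase, 10 genes of DNA replication and 15 genes of mitosis. The 4 KO libraries came from MipCreER mice with Adar floxed/floxed and R26R-EYFP, and the 4 Het libraries from MipCreER mice with Adar floxed/+ and R26R-EYFP. Mice of both groups were 1 month old, were given 2 doses of 8 mg of tamoxifen and were sampled 7 days later, so that the Het controls also carried the Cre, the reporter, the drug and 1 floxed allele. MipCreER is a Cre recombinase that tamoxifen switches on and that an insulin promoter drives, so recombination is aimed at beta cells, and R26R-EYFP turns on a yellow fluorescent protein in recombined cells. Fluorescent cells were sorted from dissociated islets, and their total RNA was sequenced. The design text names insulitis and diabetes after loss of Adar and asks for their molecular basis. How many mice gave each library is not stated, so a p-value here reflects at most the spread among libraries, which may in part be technical.

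Cells enter division when D-type cyclins with Cdk4 or Cdk6, and then E-type cyclins with Cdk2, inactivate the retinoblastoma protein and free E2F factors, which switch on the genes of DNA synthesis. The genes of mitosis come later and are held down in resting cells by the DREAM complex, which binds the CHR elements of their promoters, often beside CCAAT boxes that the factor NF-Y binds. Adult beta cells divide rarely, in mice they rely above all on cyclin D2 and Cdk4, and their division slows within weeks of birth.

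The libraries held 15.9, 13.0, 5.37 and 9.07 M reads in KO 1 to KO 4 and 5.93, 7.03, 12.8 and 8.10 M reads in Het 1 to Het 4. All 8 beta-cell markers examined (Ins1, Ins2, Iapp, Mafa, Pdx1, Nkx6-1, Slc2a2 and Ucn3) stood far above background in every library. Their normalized counts summed to 277936, 692977, 1071776 and 325025 in the KO libraries, against 832889, 819418, 1089574 and 853049 in the Het libraries. By limma, 0 of the 8 were lower at an adjusted and 3 at an unadjusted p under 0.05, against 0.425% and 5.64% of all genes. Gcg and Ttr, of 4 alpha-cell markers, and Sst, of 2 delta-cell markers, were also above background in every library. A background level was taken from 1299 genes of olfactory and vomeronasal receptors, which are used by sensory neurons. It is called the receptor level here and is their reads per kilobase of exon in the same library. These genes took 0.0462%, 0.0328%, 0.302% and 0.273% of reads in KO 1 to KO 4, and 0.163%, 0.105%, 0.0803% and 0.227% in Het 1 to Het 4. KO 1 and KO 2 therefore lay below, and KO 3 and KO 4 above, all Het libraries. Under the deposited scaling the median expressed gene also stood at log2 deviations from the average library of 0.88 in KO 1 and 0.96 in KO 2, and of −0.77 in KO 3 and −0.56 in KO 4. All values given here were rescaled for this reason. KO 3 and KO 4 held at most 1.89 of the Y-linked transcript Ddx3y, and Het 1 held 22.8 of the female transcript Xist, while the other 5 libraries held at least 274 and 2669 of them. Reads of KO 3 and KO 4 thus came from females and those of Het 1 from males. Adar itself was at a mean of 1616 in KO and 1083 in Het (limma adjusted p = 0.304). A count over the whole gene does not measure the floxed part and does not check the labels.

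Promoter motifs differed in part among the 3 groups of genes, and these differences were not tested. The promoters of RefSeq (build GRCm38.p6), from 250 bases before to 50 bases after the transcript start, were searched on both strands for E2F motifs (TTCCCGC or TTCGCGC or TTGCCGC or TTGGCGC), CHR motifs (TTTGAA or TTCGAA) and the CCAAT box (CCAAT). An E2F motif was present in 9.69%, a CHR motif in 19.4% and a CCAAT box in 37.9% of 27025 promoters. Promoters were found for 29 of the 36 genes. Of the 8 promoters of G1/S genes, 2 held an E2F motif, 0 a CHR motif and 2 a CCAAT box. Of the 9 promoters of replication genes, 6 held an E2F motif, 2 a CHR motif and 8 a CCAAT box. Of the 12 promoters of mitosis genes, 3 held an E2F motif, 10 a CHR motif and 11 a CCAAT box. Such a match is only a string of letters, and its absence from this window says nothing of the factor.

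The 140 bases before the outermost annotated start are given 5′ to 3′ on the gene's own strand for 4 genes to which the results return. Motifs are in capitals, and TTGGCGC and GCGCGAA (the reverse strand of TTCGCGC) overlap in the Mcm6 stretch. The Ccne1 stretch holds none of the motifs, and that of Mcm6 (a replication gene) holds E2F motifs and CCAAT boxes. Those of Cdk1 and Top2a (mitosis genes) hold CHR motifs beside CCAAT boxes, and that of Cdk1 also holds an E2F motif (TTCGCGC).
Ccne1, chr7:38107535-38107674, minus strand: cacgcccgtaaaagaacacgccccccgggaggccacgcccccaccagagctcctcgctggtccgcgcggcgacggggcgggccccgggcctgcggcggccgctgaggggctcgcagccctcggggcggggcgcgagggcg
Mcm6, chr1:128359706-128359845, minus strand: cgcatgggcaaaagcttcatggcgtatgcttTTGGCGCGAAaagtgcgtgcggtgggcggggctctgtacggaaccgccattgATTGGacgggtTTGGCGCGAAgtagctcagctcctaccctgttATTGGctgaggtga
Cdk1, chr10:69352939-69353078, minus strand: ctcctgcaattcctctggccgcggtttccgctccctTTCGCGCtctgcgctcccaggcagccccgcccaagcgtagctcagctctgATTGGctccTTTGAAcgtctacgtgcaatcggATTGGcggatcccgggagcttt
Top2a, chr11:99024200-99024339, minus strand: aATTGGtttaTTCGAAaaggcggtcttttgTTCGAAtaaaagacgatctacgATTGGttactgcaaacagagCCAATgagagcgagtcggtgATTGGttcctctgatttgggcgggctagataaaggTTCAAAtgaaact

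With p adjusted over all genes, none of the 36 cell cycle genes passed the test between KO and Het. The test was limma on log2(value + 1), run on the 23285 genes whose mean reached 10, where a gene is called at a Benjamini-Hochberg adjusted p under 0.05. It called 263 genes (1.13%) higher and 99 genes (0.425%) lower in KO. All 36 cell cycle genes passed the filter, and 0 were called higher and 0 lower by limma and by edgeR. Of all genes, edgeR called 0.81% higher and 0.0557% lower. DESeq2, which gave an adjusted p for 31 of the 36, called 1 higher and 0 lower, namely Ccne1, where it called 1.25% and 0.0178% of all genes. At an unadjusted p under 0.05 limma found 2 of the 36 higher (Ccne1 and Mcm7) and 1 lower (Mki67), against 6.68% and 5.64% of all genes. With edgeR the unadjusted counts were 2 higher and 2 lower, against 4.97% and 1.99% of all genes. All KO values lay above all Het values for 1 of the 36 (Ccne1) and below them for 1 (Rrm2), and these patterns were found in 5.04% and 3.93% of all genes. In sorted cells in bulk, fewer cells of a type and less RNA per cell cannot be told apart.

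Differences between the 3 groups were not tested and are given as medians. The median log2 fold change was −0.03 for the G1/S genes, with 4 of 11 above zero, and −0.04 for the replication genes, with 4 of 10 above zero. For the mitosis genes it was −0.59, with 2 of 15 above zero. Over all genes tested it was −0.19, with 34.1% above zero. The deposited scaling moved the median of all genes to 0.05, that of the 3 groups to 0.22, 0.20 and −0.37, so the sign of the first 2 medians depends on the scaling.

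**Figure D1:**
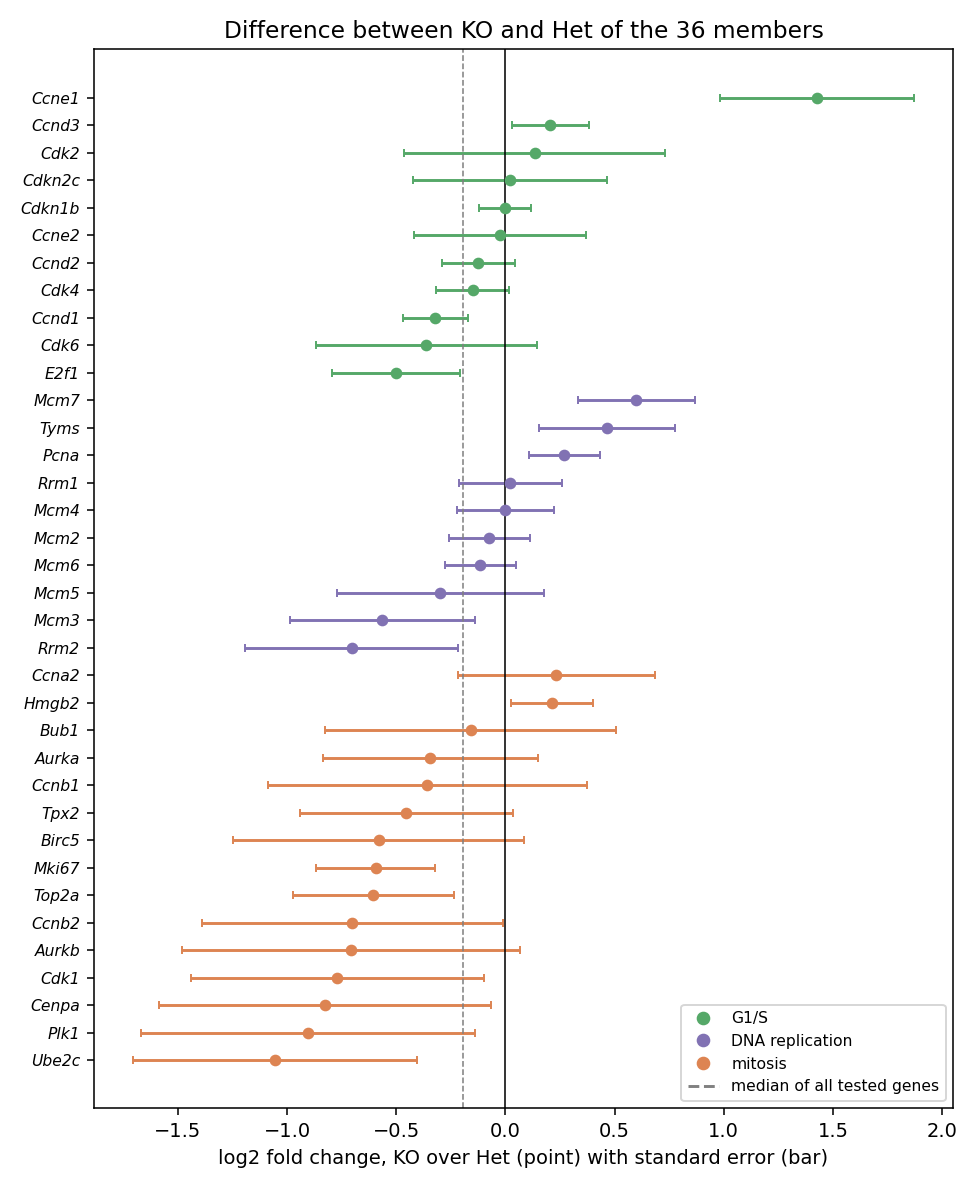
Log2 fold change, KO over Het, of the 36 cell cycle genes (points) with standard errors (bars), on the log2(value + 1) scale and in 3 colours for G1/S, DNA replication and mitosis. Ccne1 stands apart at 1.43, and 13 of the 15 mitosis genes lie below zero with wide errors.

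The D-type cyclins and their kinase made up most of the cell cycle RNA of these beta cells. Ccnd2, the D-type cyclin that mouse beta cells depend on (ENSMUSG00000000184, chromosome 6, 127125162 to 127152193, minus strand, mm10), was at 6448, 8839.8, 6325 and 6979 in the KO libraries, against 6704, 6906, 9333 and 8235 in the Het libraries. The groups overlapped, with the highest values in Het 3 and KO 2 (log2 fold change −0.12, standard error 0.17, limma adjusted p = 0.848). Per kilobase of exon its level was 759.7 ± 124 in KO and 828 ± 131 in Het (SD, n = 4 each), the highest of the 36. Ccnd1, the cyclin that links growth signals to Cdk4, was at 637, 949, 776 and 634 in the KO libraries, against 910.1, 1031, 932 and 828 in the Het libraries. KO 1, KO 3 and KO 4 lay below all Het libraries and KO 2 among them (log2 fold change −0.32, standard error 0.15, limma adjusted p = 0.406). Ccnd3, the third D-type cyclin, was lower than both per kilobase, at 25.4 ± 6.06 in KO and 21.6 ± 1.7 in Het (SD, n = 4 each). Its Het values ran within a narrow band, and the KO values lay on either side of it (log2 fold change 0.20, standard error 0.18, limma adjusted p = 0.804).

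Cdk4, the kinase partner of the D cyclins in beta cells, was at 344, 331, 539 and 347 in the KO libraries, against 406, 499, 430.3 and 369.7 in the Het libraries. KO 1, KO 2 and KO 4 were the lowest 3 of the 8 libraries and KO 3 the highest (log2 fold change −0.15, standard error 0.17, limma adjusted p = 0.836). Cdk4 lies opposite Tspan31 on the other strand, and the strand setting of the counting is not given in the sources used here. Cdk6, the other partner of the D cyclins, was at 30.3, 14, 75.7 and 82.1 in the KO libraries, against 57.8, 43.7, 42.5 and 70.4 in the Het libraries. It was near background, at 0.921 to 3.15 times the receptor level. The levels of Cdk6 were low in KO 1 and KO 2 and high in KO 3 and KO 4, as were the receptor shares.

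Neither of the listed inhibitors of these kinases passed the test. Cdkn1b (p27), which holds cyclin E and Cdk2 in check, was at 591, 654, 669.6 and 699 in the KO libraries, against 587, 651, 698 and 680.2 in the Het libraries. The means were 653 ± 45.7 in KO and 654 ± 48.5 in Het (SD, n = 4 each), and the ranges overlapped almost wholly (log2 fold change 0.00, standard error 0.12, limma adjusted p = 0.997). Cdkn2c (p18), an inhibitor of Cdk4 and Cdk6, averaged 30 ± 5.95 in KO and 30.1 ± 8.92 in Het (SD, n = 4 each), with a standard error of 0.45 around a log2 fold change of 0.02. Errors of this size leave room for sizeable differences either way.

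Ccne1, cyclin E1, which starts S phase with Cdk2, had the largest difference of the 36 genes (ENSMUSG00000002068, chromosome 7, 38097984 to 38107534, minus strand, mm10). Its level was 54.8, 36.7, 62.4 and 68.8 in the KO libraries, against 35, 15, 17.6 and 15.6 in the Het libraries. Every KO library lay above every Het library, but Het 1 and KO 2 were close to each other. These values rested on 112, 55, 33 and 78 reads in KO and 23, 12, 24 and 14 reads in Het. Its log2 fold change of 1.43 (standard error 0.45, limma unadjusted p = 0.00659, adjusted p = 0.146) was shown by 4 of 4 KO libraries. The adjusted p ran from 0.00581 to 0.396 over 23 alternatives, 7 of which called it, among them DESeq2 (adjusted p = 0.019), the deposited scaling (adjusted p = 0.00581) and quantile scaling (adjusted p = 0.0467). It was the only one of the 36 called under these scalings, where 0.921% and 1.35% of all genes were called higher and 0.0233% and 0.571% lower. Under the deposited scaling the limma fit had a median of 128988 degrees of freedom per gene, against 13.6 in the main fit. P-values under that scaling, here and below, thus rest on a variance pooled over genes. They do not measure the spread of each gene among libraries. The level of Ccne1 per kilobase was 29.9, 25.4, 3.99 and 6.18 times the receptor level in the KO libraries and 4.68, 3.19, 4.57 and 1.5 times in the Het libraries. By normalized count Ccne1 was thus higher than in Het in KO libraries with few receptor reads and in those with many. Relative to the receptor level, KO 1 and KO 2 stood far above the Het libraries and KO 4 little above them. KO 3 lay among the Het libraries on that scale.

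The other genes of the cyclin E step were not called. Ccne2, cyclin E2, averaged 36.6 ± 5.84 in KO and 38.1 ± 10.7 in Het (SD, n = 4 each; log2 fold change −0.03, standard error 0.39, limma adjusted p = 0.985). Cdk2, the kinase of both E-type cyclins, was at 14.7, 10, 22.7 and 40.6 in the KO libraries, against 22.8, 17.5, 11 and 21.2 in the Het libraries and reached no more than 3.43 times the receptor level, so that its RNA was hard to tell from background. E2f1, the factor that the cascade sets free, had the lowest log2 fold change of the G1/S genes. It was at 36.2, 64.6, 79.4 and 72.4 in the KO libraries, against 79.1, 67.5, 100.4 and 103 in the Het libraries. KO 1 was the lowest library and Het 3 and Het 4 the highest, with overlap between the groups (log2 fold change −0.50, standard error 0.29, limma adjusted p = 0.608).

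**Figure D2:**
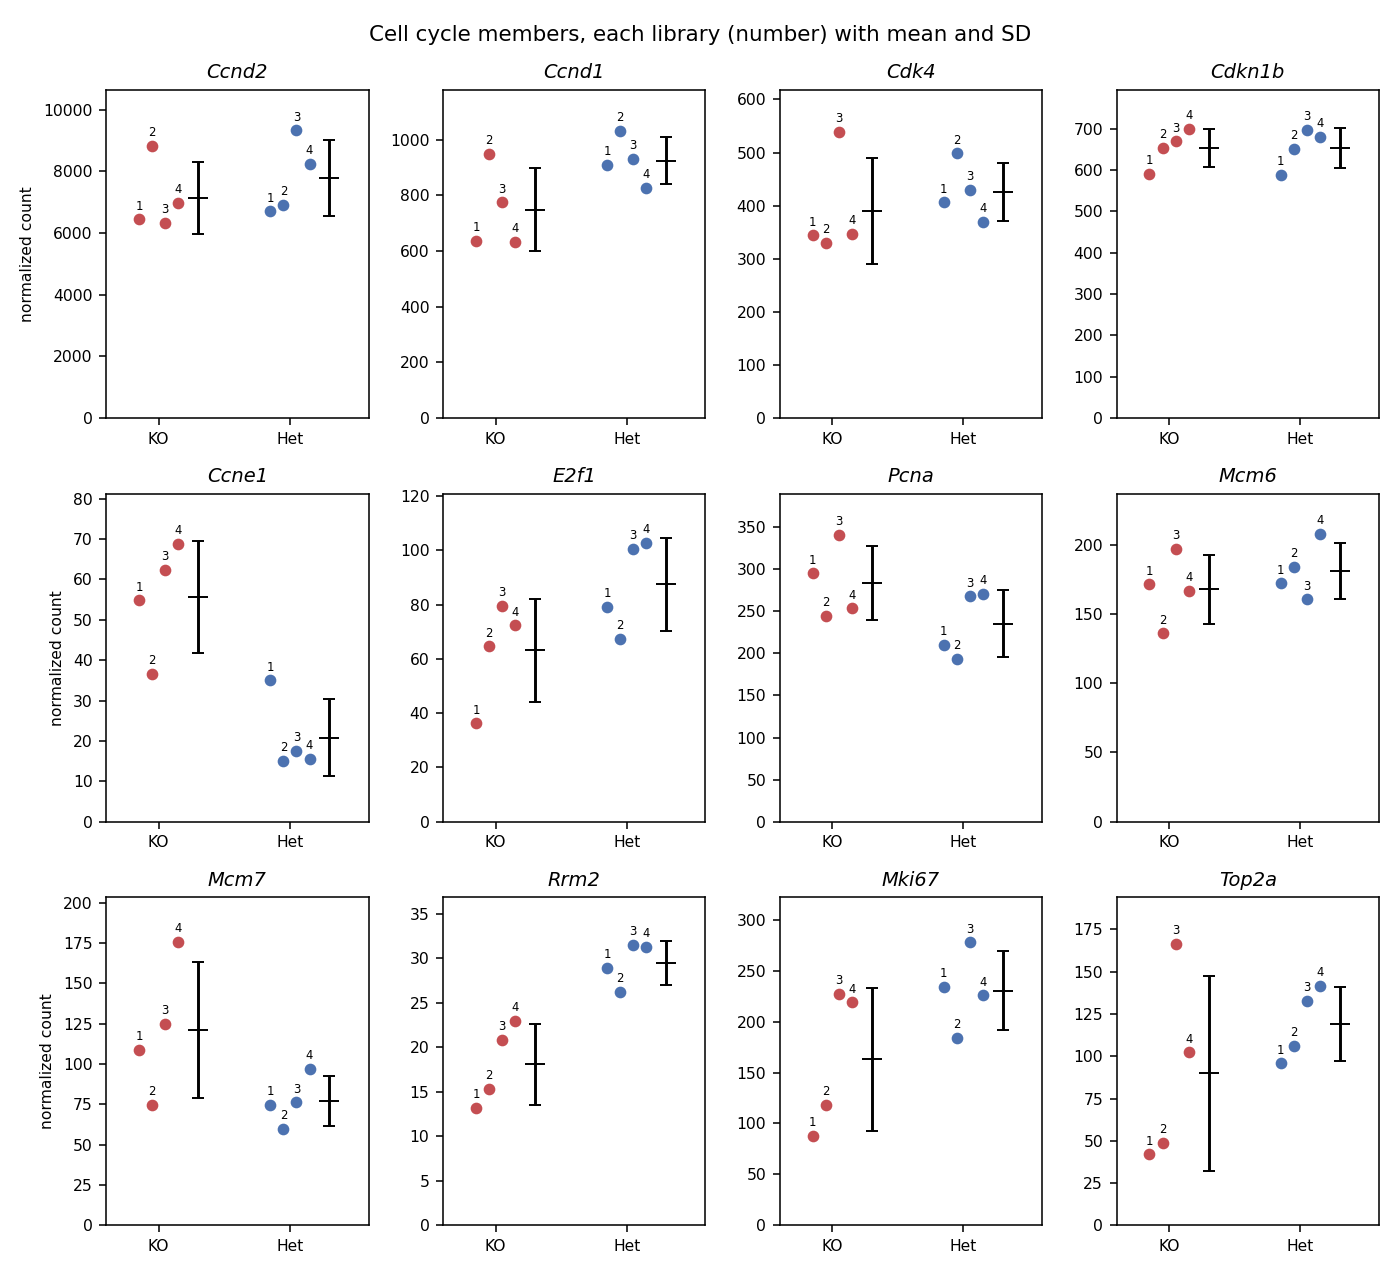
Normalized count of 12 cell cycle genes in each of the 4 KO and 4 Het libraries (points, with library numbers), with the mean and SD of each group beside them. The groups overlap in every panel except those of Ccne1, higher in KO, and Rrm2, lower in KO.

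The genes of DNA replication were led by Pcna, the sliding clamp of the DNA polymerases. Pcna was at 295, 245, 340.5 and 253 in the KO libraries, against 210.0, 194, 268 and 270.3 in the Het libraries. KO 1 and KO 3 lay above all Het libraries, and KO 2 and KO 4 among them (log2 fold change 0.27, standard error 0.16, limma adjusted p = 0.624). The Mcm2 to Mcm7 proteins form the ring-shaped helicase that opens DNA at origins. The log2 fold changes of Mcm2 to Mcm6 ran from −0.56 (Mcm3) to −0.002 (Mcm4), and only that of Mcm7 was above zero, at 0.60. Mcm6 was at 171, 136, 197 and 167 in the KO libraries, against 172, 184, 161 and 208 in the Het libraries, with overlapping groups (log2 fold change −0.12, standard error 0.16, limma adjusted p = 0.854). Mcm4 averaged 149 ± 26.2 in KO and 152 ± 43.7 in Het (SD, n = 4 each), with its lowest value in Het 2 and its highest in Het 1. Mcm2 averaged 113 ± 15.7 in KO and 118 ± 10.3 in Het (SD, n = 4 each).

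Mcm7 had the largest log2 fold change of the replication genes (ENSMUSG00000029730, chromosome 5, 138164583 to 138172422, minus strand, mm10). It was at 109, 74.6, 125 and 176 in the KO libraries, against 74.6, 60, 76.2 and 97.2 in the Het libraries. KO 1, KO 3 and KO 4 lay above all Het libraries and KO 2 within them (log2 fold change 0.60, standard error 0.27, limma adjusted p = 0.378; unadjusted p = 0.0434). With KO 1 and KO 2 left out the log2 fold change was 1.00 (limma adjusted p = 0.044), and over its 24 alternatives the adjusted p ran from 0.044 to 0.828. The gene holds the microRNAs Mir25, Mir93 and Mir106b on its own strand and overlaps Cops6 and Ap4m1 on the other, so its count may include reads of these. The remaining helicase genes, Mcm3 and Mcm5, were low and averaged 40.4 ± 19.8 in KO and 58 ± 20.9 in Het and 35.3 ± 19.2 in KO and 38.9 ± 6.35 in Het (SD, n = 4 each).

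DNA building blocks are the product of 3 of the replication genes. Rrm1, the large subunit of ribonucleotide reductase, was at 122, 107, 206 and 193 in the KO libraries, against 157, 117, 139 and 192 in the Het libraries, with KO 3 and KO 4 high and KO 2 low (log2 fold change 0.02, standard error 0.24, limma adjusted p = 0.978). Rrm2, the small subunit that limits the enzyme in S phase, was at 13.2, 15.3, 20.8 and 22.9 in the KO libraries, against 28.9, 26.2, 31.5 and 31.3 in the Het libraries. All KO values of Rrm2 lay below all Het values, yet they rested on 11 to 27 reads in KO and 19 to 43 in Het, and the difference did not pass the test (log2 fold change −0.70, standard error 0.49, limma adjusted p = 0.71). Tyms, thymidylate synthase, was at 49.4, 49.3, 73.8 and 86.5 in the KO libraries, against 48.7, 37.5, 45.5 and 50.3 in the Het libraries. KO 3 and KO 4 lay highest, and KO 1 and KO 2 among the Het values (log2 fold change 0.47, standard error 0.31, limma adjusted p = 0.695). The subunits of the same enzyme, Rrm1 and Rrm2, therefore had different orders of libraries.

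Most genes of mitosis were low in every library, and the summed level of all 15 differed more among the KO libraries than between KO and Het. Hmgb2 and Mki67 were the highest of them, with means of 228 and 197 over all libraries. Summed over the 15 genes the normalized count was 457, 449, 1252 and 936 in the KO libraries, against 855, 816, 869 and 956 in the Het libraries. All Het libraries lay above KO 1 and KO 2 and below KO 3. The summed replication genes, 1046, 928, 1326 and 1297 in the KO libraries, against 1131, 912, 1042 and 1261 in the Het libraries, and the summed G1/S genes, 8432, 11129.8, 8905 and 9217 in the KO libraries, against 9046, 9476, 11807 and 10622 in the Het libraries, were more even. The receptor genes too were lowest in KO 1 and KO 2 and highest in KO 3, with 3591, 2833, 30637 and 21845 in the KO libraries, against 14669.7, 9205, 7546 and 20483 in the Het libraries. The part of this background in the mitosis counts was not tested beyond a subtraction of the receptor level. Sex-linked transcripts split the KO libraries in the same way. KO 1 and KO 2 held both Xist and Ddx3y (443 and 662 of Ddx3y), while KO 3 and KO 4 held at most 1.89 of Ddx3y. Whether sex bears on the mitosis counts was not tested.

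Mki67, the proliferation marker Ki-67, was at 87.6, 118, 227 and 219 in the KO libraries, against 234, 184, 278 and 226 in the Het libraries (ENSMUSG00000031004, chromosome 7, 135689784 to 135716361, minus strand, mm10). The lowest of the 8 libraries were KO 1 and KO 2, and KO 3 and KO 4 lay within the Het range (log2 fold change −0.59, standard error 0.27, limma adjusted p = 0.392; unadjusted p = 0.0474). Top2a, the topoisomerase that untangles chromosomes before they part, was at 42.1, 48.7, 166 and 102 in the KO libraries, against 95.9, 106, 133 and 142 in the Het libraries. Again KO 1 and KO 2 were lowest, and KO 3 was the highest of all (log2 fold change −0.61, standard error 0.37, limma adjusted p = 0.635). Cdk1, the kinase that starts mitosis, was at 7.34, 8.66, 60.5 and 51.2 in the KO libraries, against 45.7, 33.7, 28.6 and 44.7 in the Het libraries, with the same split of the KO libraries (log2 fold change −0.77, standard error 0.67, limma adjusted p = 0.806). Ube2c, the ubiquitin-conjugating enzyme of the anaphase-promoting complex, had the lowest log2 fold change of the 36. It was at 6.36, 6.0, 37.8 and 22.1 in the KO libraries, against 22.8, 28.7, 28.6 and 40.2 in the Het libraries, with KO 3 and KO 4 in or near the Het range (log2 fold change −1.06, standard error 0.65, limma adjusted p = 0.643).

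Tpx2, which guides spindle assembly, was at 26.4, 16.7, 100.3 and 68.8 in the KO libraries, against 68.5, 52.5, 52.8 and 59.2 in the Het libraries, with KO 3 highest (log2 fold change −0.45, standard error 0.49, limma adjusted p = 0.832). Hmgb2, a chromatin protein that is abundant in dividing cells, was the most abundant mitosis gene per kilobase, at 82.8 ± 25.1 in KO and 69.3 ± 4.41 in Het (SD, n = 4 each). Its normalized count was 202, 184, 352 and 257 in the KO libraries, against 198, 227, 205 and 202 in the Het libraries, and KO 1 and KO 2 did not stand low together here: KO 1 lay within the narrow Het range and KO 2 just below it (log2 fold change 0.21, standard error 0.19, limma adjusted p = 0.808). Ccna2, cyclin A2, had the largest log2 fold change of the mitosis genes. It was at 27.4, 20.7, 35.9 and 41.5 in the KO libraries, against 27.4, 25, 22.7 and 27.9 in the Het libraries, overlapping (log2 fold change 0.23, standard error 0.45, limma adjusted p = 0.883). The mean of each of the other 8 mitosis genes (the B-type cyclins Ccnb1 and Ccnb2, the kinases Aurka, Aurkb, Bub1 and Plk1, the survivin gene Birc5 and the centromeric histone gene Cenpa) was between 11.9 and 25.3 in KO and between 12.3 and 31.3 in Het. Their log2 fold changes ran from −0.91 to −0.16 and none was called. For Ccnb1 (mean 17.4 in KO and 16.9 in Het) and Bub1 (mean 13.3 in KO and 12.3 in Het) the mean was higher in KO although the log2 fold change was below zero.

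Both KO 1 and KO 2 lay below all 4 Het libraries for 12 of 15 mitosis genes, 3 of 10 replication genes and 3 of 11 G1/S genes. Over all tested genes this held for 49.5%. KO 3 lay above all Het libraries for 11 of 15 mitosis genes and 56.2% of all genes. With KO 3 and KO 4 left out, limma called 13 of the 36 genes lower (10 of mitosis, among them Mki67, Top2a, Cdk1 and Ube2c) and 1 higher (Ccne1), where 38.1% and 4.02% of all genes were called. The adjusted p of Mki67 was 0.000317 there, and over its 24 alternatives it ran from that value to 0.967. With KO 1 and KO 2 left out, 0 were called lower and 2 higher (Ccne1 and Mcm7), where 1.49% and 3.13% of all genes were called. With array weights, which limma sets by how far each library departs from the fit, 2 of the 36 were called higher and 13 lower, where 7.99% and 33.6% of all genes were called. Without Het 1, KO 3 and KO 4, which leaves the 5 libraries that hold both Xist and Ddx3y, 1 was higher and 12 lower, where 2.89% and 27.8% of all genes were called. The median log2 fold change of the mitosis genes was −1.43 without KO 3 and KO 4 and 0.51 without KO 1 and KO 2, against −0.51 and 0.46 over all genes. The median of the mitosis genes thus changed sign with the choice of KO libraries, as did the median of all genes.

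**Figure D3:**
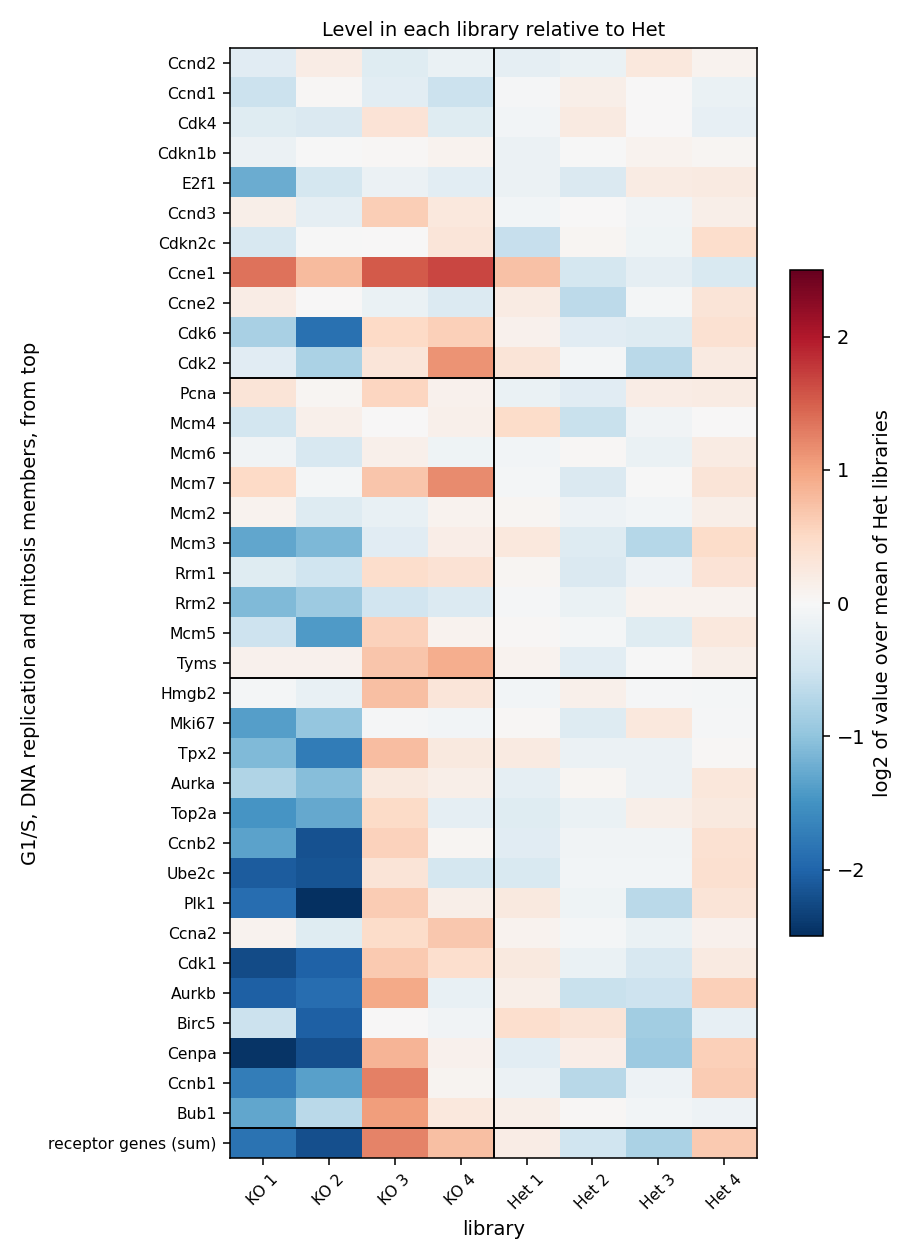
Log2 of each library's value over the mean of the 4 Het libraries, for the 36 cell cycle genes in the order G1/S, DNA replication and mitosis, with the summed receptor genes in the last line. KO 1 and KO 2 are blue for most mitosis genes and for the receptor genes, KO 3 is red for most of them, and Ccne1 is red in all 4 KO libraries.

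Many of the 36 genes lay near background in some of the libraries. A gene was taken as above background where its reads per kilobase were over 3 times the receptor level in all 8 libraries, a limit chosen after seeing the data. By this measure 6 of 11 G1/S genes (Ccnd1, Ccnd2, Ccnd3, Cdk4, Cdkn1b and E2f1) were above background. So were 5 of 10 replication genes (Pcna, Mcm4, Mcm6, Mcm7 and Rrm1) and 4 of 15 mitosis genes (Mki67, Ccnb2, Tpx2 and Hmgb2). Together these are 41.7% of the 36, beside 48.6% of 20564 protein-coding genes and 8 of 8 beta-cell markers. A gene could fail through a single library, as Mcm2 did, at 2.55 times in KO 3 with a median of 7.49 times. It could also pass narrowly on few reads, as Ccnb2 did, at 3.03 times in KO 4 and with 5 reads in KO 2. The median ratio of a gene over the libraries was 5.30 at the median of the 36 genes and 5.84 at that of protein-coding genes. Relative to the receptor level the summed mitosis genes stood at 10.2, 12.6, 3.26 and 3.42 times in the KO libraries and at 4.65, 7.07, 9.18 and 3.72 times in the Het libraries. On this scale KO 1 and KO 2 were the highest libraries, the opposite of their place by normalized count. KO 1 and KO 2 were also highest for the summed G1/S genes, at 195 and 326 times, with at most 130 times (Het 3) elsewhere. For the summed replication genes they stood at 30.6 and 34.4 times, with at most 14.5 times (Het 3) elsewhere. Without Mki67, Top2a and Hmgb2 the mitosis genes stood at 4.20 and 4.16 times in KO 1 and KO 2, against 4.05 times in Het 3.

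After subtraction of the receptor level, scaled to the length of each gene, the summed mitosis counts were 412, 413, 871 and 665 in the KO libraries, against 671, 701, 774 and 705 in the Het libraries. The lowest libraries were still KO 1 and KO 2, and the highest KO 3. Limma on the subtracted values, an alternative added after seeing the data, called 0 of the 31 cell cycle genes that it could test. It called 1.99% of all genes higher and 0.687% lower. Ccne1 had a log2 fold change of 1.89 there (adjusted p = 0.0615).

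**Figure D4:**
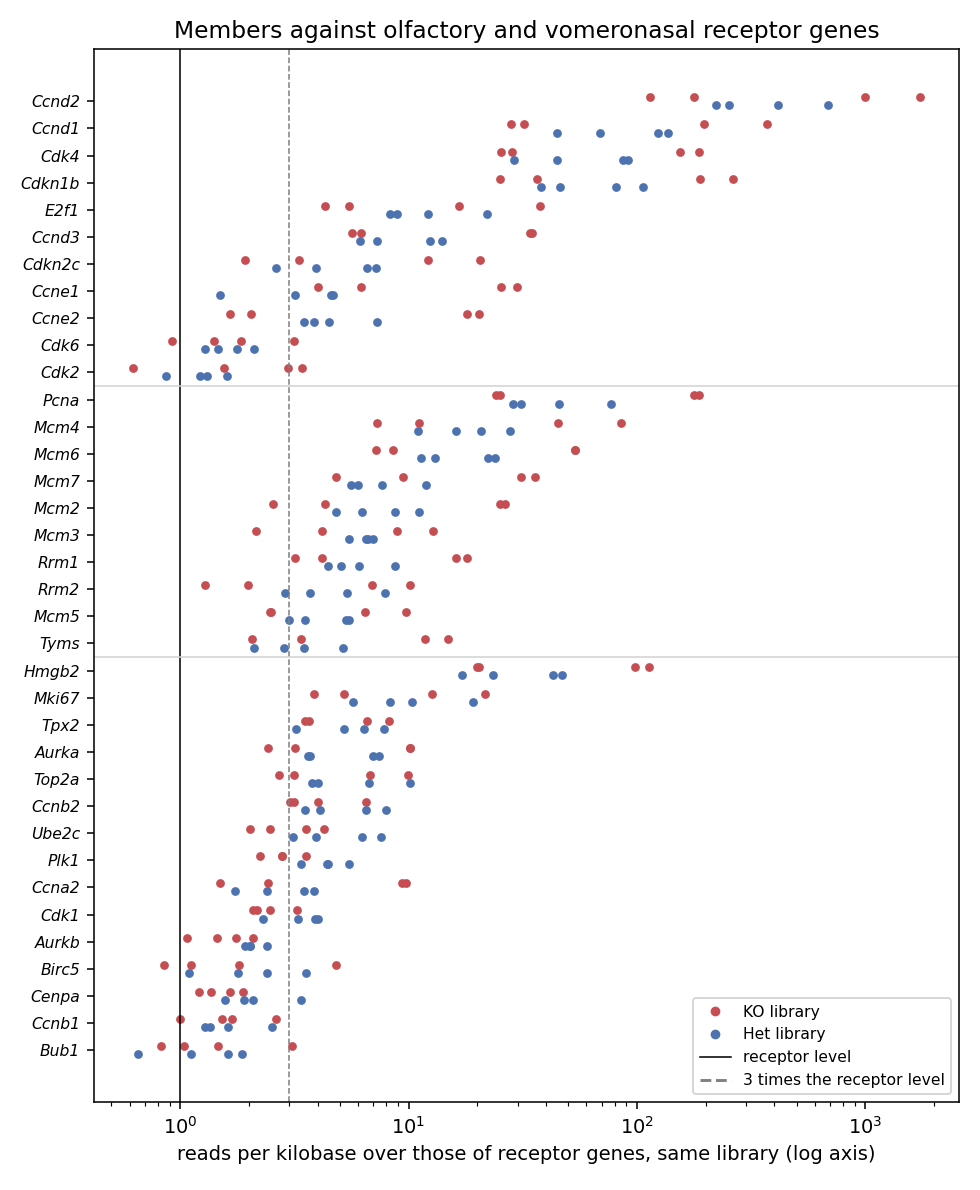
Reads per kilobase of each cell cycle gene over those of the receptor genes of the same library, on a log axis, with 1 point per KO or Het library, in the order G1/S, DNA replication and mitosis. Cyclin D2 stands at 115 to 1731 times the receptor level, while most mitosis genes lie near the dashed line at 3 times.

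Markers of immune cells, which a sort of islet cells can carry along, were set beside these values. Of these, 5 of 22 (Lck, Cd79a, Csf1r, Cd68 and C1qa) were above background in all 8 libraries. The 3 leukocyte markers summed to 24.9, 17.3, 191 and 150.0 in the KO libraries, against 100.4, 68.7, 49.9 and 136 in the Het libraries, which is 1.3 to 1.6 times the receptor level in every library. The 7 T-cell markers summed to 72.9, 30, 248 and 207 in the KO libraries, against 167, 104, 92.4 and 198 in the Het libraries, or 1.96 to 4.93 times the receptor level, and none was at 0 in any library. Both sums were low in KO 1 and KO 2 and high in KO 3 and KO 4, like those of the receptor genes. The 8 macrophage markers summed to 105, 191, 323 and 235 in the KO libraries, against 543, 459.8, 354 and 441 in the Het libraries, so every KO library lay below every Het library. Of the macrophage markers, C1qa was lower in KO (mean 64.0 in KO and 246 in Het, log2 fold change −2.04, limma adjusted p = 0.00401). The part of immune cells in the mitosis counts was not tested.

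Other genes of the same pathways were examined in 8 further lists of 144 genes, of which 142 were tested. Limma called 4 of them higher and 0 lower in KO, against 1.13% and 0.425% of all genes. By list these were 1 of 5 tested CDK inhibitors, 1 of 17 genes of origin licensing and firing, 1 of 24 genes of replication polymerases, clamp and nucleotide supply, and 1 of 15 regulators of beta-cell division. None was called of 19 pocket protein, E2F and DREAM genes, 37 spindle, kinetochore and cytokinesis genes, 10 condensin and cohesin genes and 15 checkpoint and repair genes.

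Cdkn1a (p21), the CDK inhibitor that p53 switches on, was at 1346, 725, 1127 and 937 in the KO libraries, against 578, 539.8, 501 and 389.8 in the Het libraries. The groups did not overlap (log2 fold change 1.02, standard error 0.19, limma adjusted p = 0.0194), and 16 of 25 alternatives also called it, with adjusted p from 2.5e-05 to 0.547. The deposited scaling, edgeR and DESeq2 were among those that did not, as was leaving out KO 1 (adjusted p = 0.0589), Het 2 (0.0519) or Het 3 (0.0507). Cdkn1a was also not called with TMM factors from all tested genes (limma adjusted p = 0.181) or without trend or robust settings (0.303). Samhd1, which breaks down the nucleotides that ribonucleotide reductase makes and is also known as an antiviral factor, was at 516, 282, 431 and 609 in the KO libraries, against 199, 222, 166 and 302 in the Het libraries. Het 4 lay above KO 2, and the other KO libraries lay above all Het libraries (log2 fold change 1.02, standard error 0.23, limma adjusted p = 0.0427). It was called by edgeR (adjusted p = 0.0399) and DESeq2 (adjusted p = 0.0489) too, and by 14 of 25 alternatives in all, with adjusted p from 7.8e-05 to 0.410. It did not pass under the deposited scaling (adjusted p = 0.410), with TMM factors from all tested genes (0.0655) and without trend or robust settings (0.384). The call also ended when any single library other than KO 2 or Het 4 was left out (adjusted p from 0.0853 to 0.152).

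Orc4, a subunit of the origin recognition complex, was at 648, 507, 757 and 602 in the KO libraries, against 341, 345, 408 and 417 in the Het libraries. The groups did not overlap (log2 fold change 0.73, standard error 0.14, limma adjusted p = 0.0261), and 16 of 25 alternatives called it, with adjusted p from 0.000391 to 0.795. Bmi1, a Polycomb protein that represses the Cdkn2a locus in beta cells, was at 788, 650.5, 759 and 733 in the KO libraries, against 419, 479, 492 and 543 in the Het libraries. Again every KO value lay above every Het value (log2 fold change 0.60, standard error 0.13, limma adjusted p = 0.0334), and 14 of 25 alternatives called it, with adjusted p from 0.000604 to 0.859. Neither gene was called under the deposited scaling, by edgeR or by DESeq2. The same held with TMM factors from all tested genes (limma adjusted p = 0.337 for Orc4 and 0.554 for Bmi1). It also held without trend or robust settings (limma adjusted p = 0.322 and 0.346). Orc4 was not called without KO 1, Het 1, Het 2 or Het 3 (adjusted p from 0.0638 to 0.12), nor Bmi1 without KO 1, KO 4 or any 1 of the Het libraries (adjusted p from 0.0544 to 0.152).

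**Figure D5:**
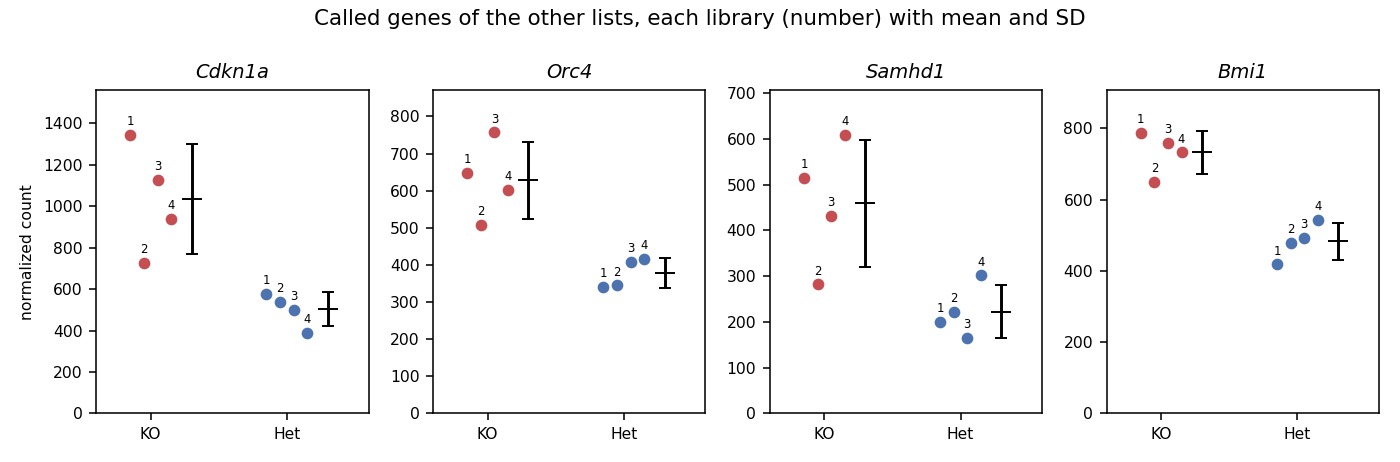
Normalized count of Cdkn1a, Orc4, Samhd1 and Bmi1 in each of the 4 KO and 4 Het libraries (points, with library numbers), with the mean and SD of each group beside them. The KO values lie above the Het values in each panel except that of Samhd1, where KO 2 lies just below Het 4.

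The genes of smallest p after the 4 called ones did not pass the test in these lists. Rbl1 (p107), a pocket protein of the DREAM complex, was at 206, 109, 197 and 222 in the KO libraries, against 97.4, 114, 106 and 141 in the Het libraries (log2 fold change 0.64, standard error 0.23, limma adjusted p = 0.216). Men1, the menin gene, whose loss lets beta cells divide, was at 226, 236, 249.7 and 156 in the KO libraries, against 301, 331, 322 and 268 in the Het libraries, with every KO value below every Het value (log2 fold change −0.51, standard error 0.16, limma adjusted p = 0.157). Wee1, the kinase that holds Cdk1 back, was low in KO 1 and KO 4 and within or near the Het range in KO 2 and KO 3, at 199.6, 358, 312 and 109 in the KO libraries, against 373, 336, 370.2 and 402 in the Het libraries (log2 fold change −0.73, standard error 0.30, limma adjusted p = 0.32). Atm, the kinase of the response to DNA breaks, was high in KO 1 and KO 4, at 2587, 1262, 919 and 2472 in the KO libraries, against 895, 1031, 949 and 1128 in the Het libraries (log2 fold change 0.73, standard error 0.29, limma adjusted p = 0.299). Prc1 and Kif20a, which act in the midzone of the dividing cell, had log2 fold changes of −0.67 (standard error 0.29) and 0.68 (standard error 0.38). The log2 fold changes of Cdkn1c, E2f6, Orc3, Rfc1, Stag1 and Smc4 lay between 0.25 and 0.59, with limma adjusted p from 0.286 to 0.833.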

How the data were processed

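RNA of 8 libraries of sorted mouse beta cells (4 KO, 4 Het) was analysed, grouped by the genotype in the labels. The deposited signal values are gene counts that the authors divided by 1 size factor per library. Per the submitters' processing notes, the build was mm10 and the tools included STAR 2.7.3a, HTSeq, UMI-tools, DESeq2 1.28.1 and FastQC 0.11.8. The strand setting, the counting mode and the handling of duplicates are not given in the sources used here, and counts of overlapping genes are uncertain. Per the labels' protocols, libraries were made with the stranded pico total RNA kit of Takara (SMARTer, version 3).

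Each library's values were multiples of 1 step (100%, within 0.001 of a step), so whole reads could be recovered, 5.37 to 15.9 M per library. No pair of replicates agreed within counting noise (chi-square over its degrees of freedom was at least 31.8 in KO and 3.54 in Het). Depth sets only the counting error, and the binomial intervals of receptor shares were narrow at 95%. Reads were divided by TMM factors from 6697 genes with a mean of at least 200, because of the shift of expressed genes between libraries under the deposited scaling. These values are the normalized counts of the text.

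Genes whose mean reached 10 were tested with limma 3.58.1 (R 4.3.3) on log2(value + 1), with eBayes trend and robust settings, two-sided, genotype as the only term and a Benjamini-Hochberg adjusted p under 0.05 over all genes tested. Fold changes are on that scale and understate those of low genes. Alternatives were other scalings (deposited, TMM from all tested genes, quantile), pseudocounts of 0.5 and 8, other filters, no trend or robust settings, array weights, a replicate block, edgeR 4.0.16 and DESeq2 1.42.0 on whole reads, and leaving out libraries singly or in sets. Subtraction of the receptor level was added after seeing the data. The code was tested on simulated counts. Symbols were matched to GENCODE M21 (mm10), where 42961 were found, and coordinates count from base 1.

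The 36 genes, the other lists and the alternatives were chosen with earlier results of these data known. Values per library are given for the 4 genes of highest mean and those of largest and smallest fold change in each of the 3 groups, for those called by limma, edgeR or DESeq2, and for the called genes and the 2 of smallest p in each other list. Others (Ccnd3, Cdk6, Cdk1, Cdk2, Tyms, C1qa) were added after their values were seen. Of the markers examined, those of alpha, delta, acinar, ductal, endothelial and mesenchymal cells and of B cells had 0 genes called, and macrophage markers had 1.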

Additional observations from a re-analysis of the deposited data

Results flagged for a closer look

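In each of the 36 genes the highest and lowest library of the KO and of the Het group were compared with the others by Dixon's gap test, in 72 groups in all, of which chance flags about 1 in 20. It marked 2. Cdk4 was at 539 in KO 3, far above the 331 to 347 of the other KO libraries, and KO 3 was also the library with the largest receptor share (0.302%) and mitochondrial share (17.4%). Ccne1 was at 35.0 in Het 1, far above the 15 to 17.6 of the other Het libraries, and Het 1 was the Het library whose reads came from males. Whether these properties of the libraries bear on the values was not tested.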

How the results depend on the processing

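No member was called in either direction when any single library was left out (0 in each), under TMM factors from all tested genes, pseudocounts of 0.5 and 8, no filter, filters at a mean of 50 and 200 (which kept 18 and 7 of the 36 genes), no trend or robust settings, edgeR or subtraction of the receptor level. Members called higher numbered 1 (Ccne1) under the deposited scaling, quantile scaling, DESeq2, without KO 3 and KO 4 and without Het 1, KO 3 and KO 4. They numbered 2 with array weights (Ccne1 and Pcna) and 2 without KO 1 and KO 2. Members called lower numbered 13 with array weights, 13 without KO 3 and KO 4 and 12 without Het 1, KO 3 and KO 4, where 33.6%, 38.1% and 27.8% of all genes were called lower. With single genes, 91 of the 843 values under alternatives had another sign than the main value.

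Over all genes, 263 were higher and 99 lower. Higher and lower calls numbered 139 and 9 with TMM factors from all tested genes, 0 and 0 without trend or robust settings (1555 and 1314 at an unadjusted p under 0.05 with them), 1861 and 7834 with array weights, 893 and 8474 without KO 3 and KO 4, 729 and 348 without KO 1 and KO 2, and 628 and 6049 without Het 1, KO 3 and KO 4. Lower calls alone moved to 5 under the deposited scaling (198 higher), 200 and 268 with filters at a mean of 50 and 200, 13 with edgeR and 3 with DESeq2. Leaving out 1 library gave 81 to 545 higher and 6 to 345 lower. The cause was not tested.

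Nothing in the labels says that a replicate number marks a shared litter, batch or day, and in the data the hint of a pairing was mixed, so the libraries were not treated as paired. Deviations of same-numbered KO and Het libraries correlated at 0.22, −0.05, 0.13 and 0.28 across genes, and 3 of 4 KO libraries correlated best with their own number. With the replicate block 502 genes were higher and 409 lower, and 0 members in either direction.

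With 11 to 43 reads behind genes such as Rrm2, only large differences were detectable, and differences that missed the threshold are not shown to be absent.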
